A study of Mus musculus with 186 samples.

Results

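The cornified envelope is the shell of cross-linked protein that replaces the plasma membrane of keratinocytes as they become the dead outer layer of the skin. Its genes sit side by side in the epidermal differentiation complex. Involucrin (Ivl) forms the early scaffold, loricrin (Lor) makes up much of the finished shell, small proline-rich proteins (Sprr) act as cross-bridges, and late cornified envelope proteins (Lce) are added last. Filaggrin (Flg), filaggrin-2 (Flg2), hornerin (Hrnr) and repetin (Rptn) are long S100-fused proteins of the keratohyalin granules, and filaggrin also bundles keratin and is broken down to natural moisturizing factor. Many Sprr genes and the Lce3 genes are known as low in resting skin and high in wounded or inflamed epidermis.

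The genes described here were every protein-coding gene in the count table named Sprr or Lce followed by a number, plus Lor, Ivl, Flg, Flg2, Hrnr and Rptn, with symbols from GENCODE M21. The rule gave 42 of 22095 gene IDs: 15 Sprr (11 of them Sprr2), 21 Lce (14 Lce1, 6 Lce3 and Lce6a) and 6 single genes. Sprr3 did not pass the filter on low counts, so 41 of 42 were among the 15825 genes tested. All 42 lay on chromosome 3 of GRCm38, from Lor at 92080271 to Rptn ending at 93399442. Near-identical copies, linked where the predicted protein of a member was at least 95% identical to that of another in its group, made up 6 groups with 20 members (pairs within a group can lie below that, such as Lce1c and Lce1i at 92.6%): Sprr2a1, Sprr2a2 and Sprr2a3; Sprr2e and Sprr2i; Lce1a1, Lce1a2, Lce1c, Lce1f and Lce1i; Lce1d and Lce1l; Lce1h and Lce1j; and the 6 Lce3 genes. How reads were divided within such a group is uncertain, and counts after summing each group are given with the sensitivity values.

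Skin was taken by punch biopsy from the back of female C57BL/6 mice of about 12 weeks. The mice had bleomycin, an antibiotic that breaks DNA and is used to model skin fibrosis, at 10 mg/kg/day under the skin on 5 days a week for 2 weeks, or phosphate-buffered saline (PBS), and were sampled on day 7, 14, 21, 28 or 42. The day 7 and day 14 groups had no oral dosing. From day 12 to day 27 the later groups were dosed orally with vehicle, or, in 1 bleomycin group each for days 21 and 28, with SB525334, an inhibitor of the TGF-beta type I receptor ALK5, at 30 mpk BID. The day 42 groups had vehicle, so their skin was taken after the last dose. No group given PBS with SB525334 was analysed here. The 93 skin libraries formed 12 groups of 7 to 9. The labels number the samples without saying more of their origin, so p-values measure the spread between these samples.

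Library totals ran from 14.68 M to 43.07 M counts (median 19.68 M, in units of 1e6 counts), and the libraries were spread over 2 plates (49 and 44). Summed over the 42 genes, skin libraries held 1052 to 19877 CPM (counts scaled to library size, with TMM factors), with a median of 8561. The median was 14.2 CPM in lung libraries of the same series, which were scaled to library totals without TMM factors. Basal keratinocyte markers summed to 5580 CPM or more in every skin library. In bulk tissue, fewer cells of a type and less RNA per cell cannot be told apart. One library, replicate 5 of the day 42 bleomycin group, was the lowest of its group for many of these genes (Flg2 605 CPM against 1814 or more in the others) and for Krt5 (1550 CPM) and Krt10 (706 CPM), while its Col1a1, at 3790 CPM, lay within the range of the others. The day 21 bleomycin-with-vehicle replicate 4 stood apart in the other direction, and results that rest on it are given with and without it.

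Promoter sequence was read for the genes from the RefSeq table for GRCm38.p6, in which 40 of 42 were matched (not Sprr2j-ps or Lce1f). These 5 stretches of 200 bases just before the start site are shown because they come from genes that moved most, or in opposite directions, under bleomycin. Capitals mark TGANTCA, a loose form of the AP-1 motif, and ATGCAAAT, the octamer motif, on either strand (TGANTCA reads the same on both). Sprr2d is at chr3:92338940-92339139 (+), Sprr1b at chr3:92438780-92438979 (-), Flg at chr3:93273346-93273545 (+), Flg2 at chr3:93197073-93197272 (+) and Lce3e at chr3:92966861-92967060 (+), each written 5′ to 3′ on the gene's strand.
Sprr2d: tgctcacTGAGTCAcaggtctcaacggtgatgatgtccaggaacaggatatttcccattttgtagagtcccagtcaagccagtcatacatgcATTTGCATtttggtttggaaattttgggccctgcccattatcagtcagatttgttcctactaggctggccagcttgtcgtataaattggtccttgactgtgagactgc
Sprr1b: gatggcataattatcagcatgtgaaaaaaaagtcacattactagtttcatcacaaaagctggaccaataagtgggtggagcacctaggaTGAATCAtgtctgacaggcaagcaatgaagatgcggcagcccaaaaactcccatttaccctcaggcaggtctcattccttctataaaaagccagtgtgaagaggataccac
Flg: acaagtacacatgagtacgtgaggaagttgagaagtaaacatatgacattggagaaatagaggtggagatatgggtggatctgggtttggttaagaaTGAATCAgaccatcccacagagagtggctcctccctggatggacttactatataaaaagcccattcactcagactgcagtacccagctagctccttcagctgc
Flg2: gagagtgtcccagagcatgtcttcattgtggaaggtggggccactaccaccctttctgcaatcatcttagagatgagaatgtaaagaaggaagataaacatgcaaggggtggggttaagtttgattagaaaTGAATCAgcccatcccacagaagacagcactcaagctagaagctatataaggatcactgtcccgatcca
Lce3e: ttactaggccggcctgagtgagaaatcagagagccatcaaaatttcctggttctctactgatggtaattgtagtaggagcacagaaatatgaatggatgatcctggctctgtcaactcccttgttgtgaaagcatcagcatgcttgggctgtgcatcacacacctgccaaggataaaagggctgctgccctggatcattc

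In the 250 bases before the start, TGANTCA occurred in 14 of 40 members (35.0%) and in 6.87% of all 27025 promoters of the table. It was found in the 7 Sprr2 promoters other than Sprr2a1, Sprr2a2 and Sprr2a3, with 1 site each between 193 and 198 bases before the start and, in Sprr2k, a further site at 182, and in those of Sprr1a, Sprr1b, Ivl, Lor, Flg, Flg2 and Rptn. The 20 Lce promoters and those of Hrnr, Sprr3 and Sprr4 did not hold these letters in the window. ATGCAAAT was found in the same 7 Sprr2 promoters, between 108 and 112 bases before the start, in no other member, and in 1.61% of all promoters. TATAAA, the TATA box, was searched on the gene's strand only and occurred in 17 of 40 members (42.5%), against 8.12% of all. A match of letters is a description of the window and not a measured binding site.

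Before any bleomycin effect, the genes differed widely in level. Per kilobase of gene model and averaged over the 39 PBS libraries, Sprr1a reached 305 CPM/kb and Lce1m 301 CPM/kb, followed by Flg2 at 210 and Hrnr at 167 CPM/kb. Ivl stood at 77.2 and Lor at 57.1 CPM/kb, and Flg at 5.05 CPM/kb. Of the genes that rose most under bleomycin, Rptn stood at 42.7 and Sprr2a2 at 11.5 CPM/kb, and Sprr1b at 3.94, Lce3e at 0.266 and Sprr2k at 0.00682 CPM/kb were lower. The PBS groups themselves differed between days for 15 of 41 members (55.2% of all genes tested), among them Lor, Ivl, Flg2, Sprr1a and Lce1m. Summed hair shaft and inner root sheath markers passed 1000 CPM in 1 of 8 PBS libraries on day 7, in 1 of 8 on day 14, in 4 of 8 on day 21, in 4 of 7 on day 28 and in 5 of 8 on day 42. On day 21 the 4 PBS libraries above that level had a median Lor of 49.8 CPM, against 95.1 CPM in the other 4, and a median Flg2 of 2079 against 4034 CPM. The median was higher in them for Sprr1a, at 500 against 231 CPM, and for Ivl, at 207 against 156 CPM. With hair and skeletal muscle marker scores as terms in the fit, 0 of 41 members differed between PBS days at the same threshold, against 15 without them, and 0 had an unadjusted p below 0.05. The share of all genes differing in that fit is not given here, so a fall particular to these members was not shown.

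Most of the complex was higher in bleomycin than in PBS skin on days 7 and 14. On day 7, 31 of 41 members rose and 2 fell (adjusted p below 0.05, edgeR quasi-likelihood test), where 46.2% of all genes were called, 25.5% higher and 20.7% lower. The median log2 fold change of the 41 was 2.25, against 0.02 over all genes. On day 14, 33 rose and 2 fell, where 59.6% of all genes were called, 31.5% higher and 28.1% lower, and the median was 2.93 against 0.01. Groups did not overlap for 13 of the called members on day 7 (10.9% of all genes) and for 26 on day 14 (23.7% of all genes). Every one of these calls had the same sign within each plate.

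**Figure D1:**
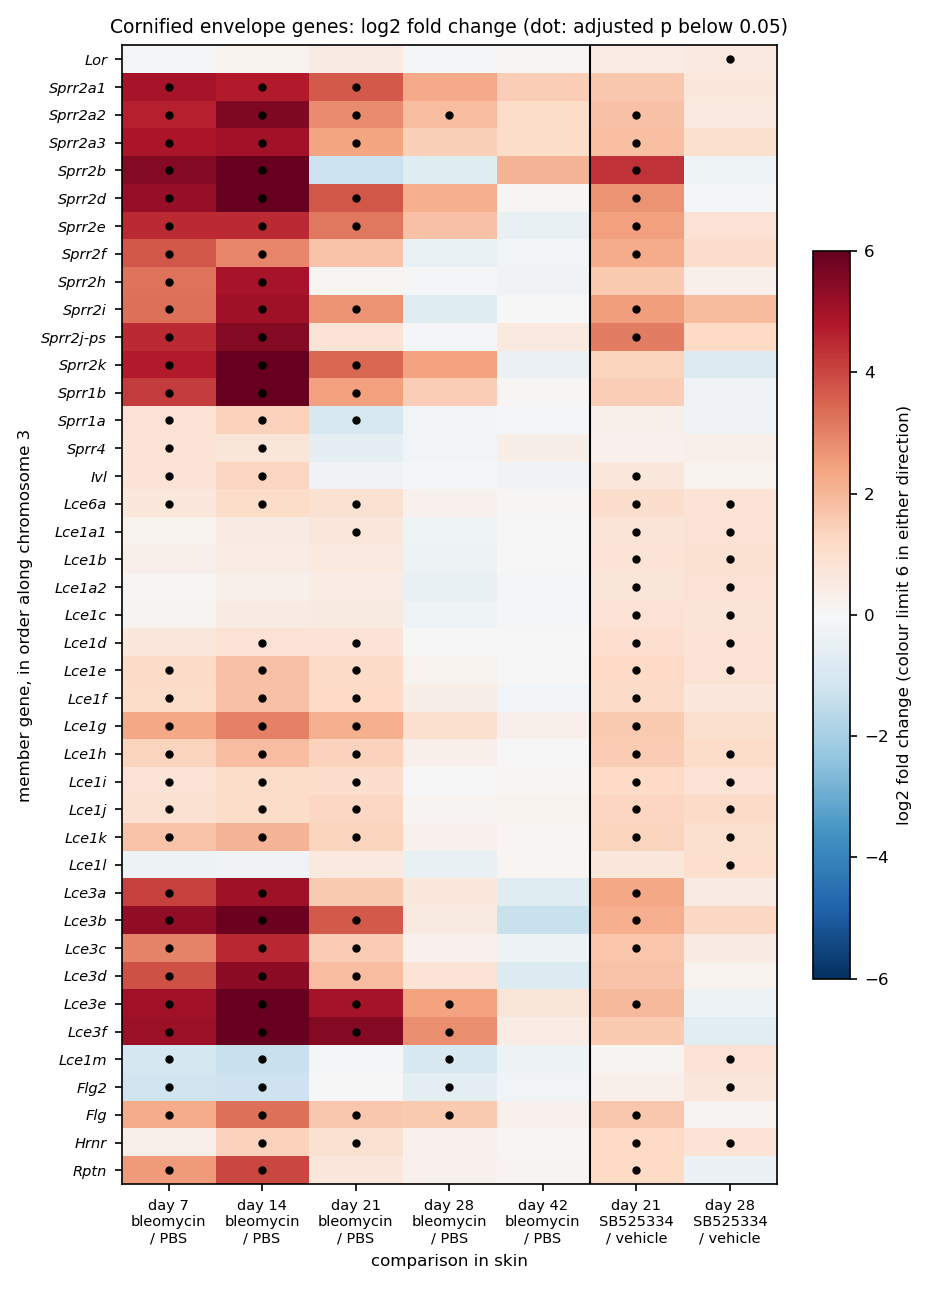
Log2 fold change of the 41 tested genes in chromosome order (rows) in 7 skin comparisons (columns: bleomycin against PBS on days 7, 14, 21, 28 and 42, then SB525334 against vehicle on days 21 and 28), red for higher and blue for lower, with a dot where the adjusted p was below 0.05. Dots fill the day 7 and day 14 columns (33 and 35 genes), thin out to 6 on day 28 and are absent on day 42. The colours of Sprr2k on days 7, 14 and 28 and of Sprr2b on day 42 are fitted values against PBS libraries that all held 0 counts.

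The Sprr2 genes, most of which encode short cross-bridging proteins, rose on both days in 11 of 11. The 11 include Sprr2j-ps, which is named as a pseudogene but listed as protein-coding. Its predicted protein held 9.2% proline and 5.5% cysteine, against 41.2% and 18.8% in that of Sprr2d. Their summed level had a median of 30.5 CPM in PBS and 815 CPM in bleomycin skin on day 7, and of 48.8 and 2274 CPM on day 14. Sprr2a2 made up most of that sum. It measured 9.99 CPM in the lowest PBS library of day 7, 29.3 at the median and 227 in the highest, against 182, 653 and 2620 CPM with bleomycin. On day 14 the PBS libraries ran from 13.7 over 30.6 to 66.1 CPM and the bleomycin libraries from 1096 over 1722 to 2742 CPM. The groups overlapped on day 7, through 1 PBS library far above the rest, and were fully apart on day 14. The log2 fold change was 4.66 ± 0.64 (SE; adjusted p = 1.19e-08) on day 7 and 5.60 ± 0.66 (adjusted p = 2.92e-11) on day 14 (n = 7 against 8, then 8 against 8). Sprr2d, whose promoter is shown, rose by 5.23 ± 0.88 and then by 6.49 ± 0.88 from a PBS median of 0.0537 CPM on day 7. Sprr2k had no count in any PBS library of either day and 19 and 270 counts over the bleomycin groups, which is at least 7.33-fold and at least 91.4-fold higher against a floor of 3 counts over the group. The 11 log2 fold changes of day 7 ran from 3.24 for Sprr2h to 5.49 for Sprr2b. The Sprr2 median log2 fold change was 4.66 on day 7 (4.47 with Sprr2k at that bound) and 5.08 on day 14.

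Sprr1b, a cross-bridge protein of stressed and squamous epithelium, showed the largest fitted rise on day 14 among the tested members with PBS counts above 0. Its PBS libraries held 0.336 CPM at the lowest, 1.16 at the median and 3.58 at the highest, and the bleomycin libraries 46.0, 111 and 285 CPM. The 2 groups did not overlap, and the log2 fold change was 6.51 ± 0.81 (adjusted p = 1.25e-10). Sprr1a, its close relative with a high resting level, rose by 0.85 ± 0.33 (adjusted p = 0.0273) on day 7 and 1.38 ± 0.32 (adjusted p = 0.00015) on day 14, and Sprr4 by 0.83 ± 0.28 and 0.72 ± 0.27. Sprr3, known from mouth and oesophagus, was untested: it was listed at 0 in all PBS libraries of day 14 and at 0.0486 to 1.56 CPM in the bleomycin libraries.

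The late envelope genes split by subfamily. All 6 Lce3 genes, the class linked to wounded and psoriatic epidermis, rose on both days, and Lce3e is the clearest in its values. It ran from 0 over 0.129 to 0.663 CPM in PBS and from 1.28 over 3.34 to 22.1 CPM in bleomycin skin on day 7, and from 0 over 0.111 to 0.632 against 8.54, 16.1 and 31.6 CPM on day 14. Over the 6 genes the log2 fold changes ran from 2.96 to 5.30 on day 7 and from 4.52 to 6.45 on day 14. For Lce3e the groups were apart on both days, and the log2 fold changes were 5.02 ± 0.74 (adjusted p = 8.48e-08) and 6.45 ± 0.75 (adjusted p = 1.46e-11). Of the 15 Lce1 and Lce6a genes, made in late differentiation of resting skin, 8 rose and 1 fell on day 7, and 9 rose and 1 fell on day 14. Their largest rise was that of Lce1g, by 2.30 ± 0.39 and 3.00 ± 0.39. Lce1m was the member that fell, by 1.05 ± 0.27 (adjusted p = 0.000974) and 1.36 ± 0.26 (adjusted p = 7.17e-06) on the log2 scale. On day 14 Lce1m measured 346, 384 and 487 CPM (lowest, median, highest) in PBS and 91.8, 156 and 249 CPM in bleomycin skin, so the groups did not overlap. Since Lce1m and Lce1a2 are abundant and Lce3 genes scarce, the summed Lce1 and Lce6a level had medians of 941 in PBS and 1017 CPM with bleomycin on day 7 and of 1010 and 1344 CPM on day 14. The Lce3 sum had medians of 1.42 and 18.0, then 1.32 and 57.5 CPM.

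The S100-fused proteins moved in opposite directions. Flg (ENSMUSG00000102439) measured 79.3, 112 and 145 CPM (lowest, median, highest) in PBS and 374, 471 and 619 CPM in bleomycin skin on day 7. On day 14 it measured 56.7, 69.3 and 143 against 557, 781 and 1028 CPM. No bleomycin library of either day overlapped PBS, and the log2 fold changes were 2.25 ± 0.36 (adjusted p = 6.33e-07) and 3.32 ± 0.37 (adjusted p = 4.7e-12). Rptn, which encodes a matrix protein of hair follicle and tongue, moved likewise, from a median of 142 CPM in PBS (111 to 167) to 2322 CPM (1235 to 3521) on day 14, by 4.01 ± 0.45 (adjusted p = 5.83e-12). Flg2 (ENSMUSG00000049133), which lies close to Flg on the same strand, went the other way. Its PBS libraries held 3766, 5873 and 6635 CPM on day 7 and 4128, 5271 and 7631 on day 14, and its bleomycin libraries 2128, 2315 and 3032, then 1860, 2206 and 3169 CPM. These groups did not overlap either, and Flg2 fell by 1.18 ± 0.21 (adjusted p = 3.23e-06) and by 1.22 ± 0.20 (adjusted p = 1.95e-07) on the log2 scale. The Flg and Flg2 stretches printed above both hold the same TGAATCA, at 103 and 69 bases before the start. Hrnr differed by 0.30 (adjusted p = 0.43) on day 7 and rose by 1.36 ± 0.30 (adjusted p = 7.49e-05) on day 14, from 2115 CPM (1218 to 2754) to 5191 CPM (3506 to 6899) at the median.

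Of the scaffold genes, Ivl rose and Lor did not pass the test. Ivl ran from 95.6 to 157 CPM (median 136) in PBS and from 174 to 280 CPM (median 242) in bleomycin skin on day 7, without overlap, a log2 fold change of 0.80 ± 0.16 (adjusted p = 3.24e-05), and rose by 1.27 ± 0.16 (adjusted p = 1.06e-10) on day 14. Lor had medians of 131 and 114 CPM on day 7 and of 146 and 162 CPM on day 14, with overlapping groups and log2 fold changes of -0.13 ± 0.22 (adjusted p = 0.664) and 0.19 ± 0.21 (adjusted p = 0.44).

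**Figure D2:**
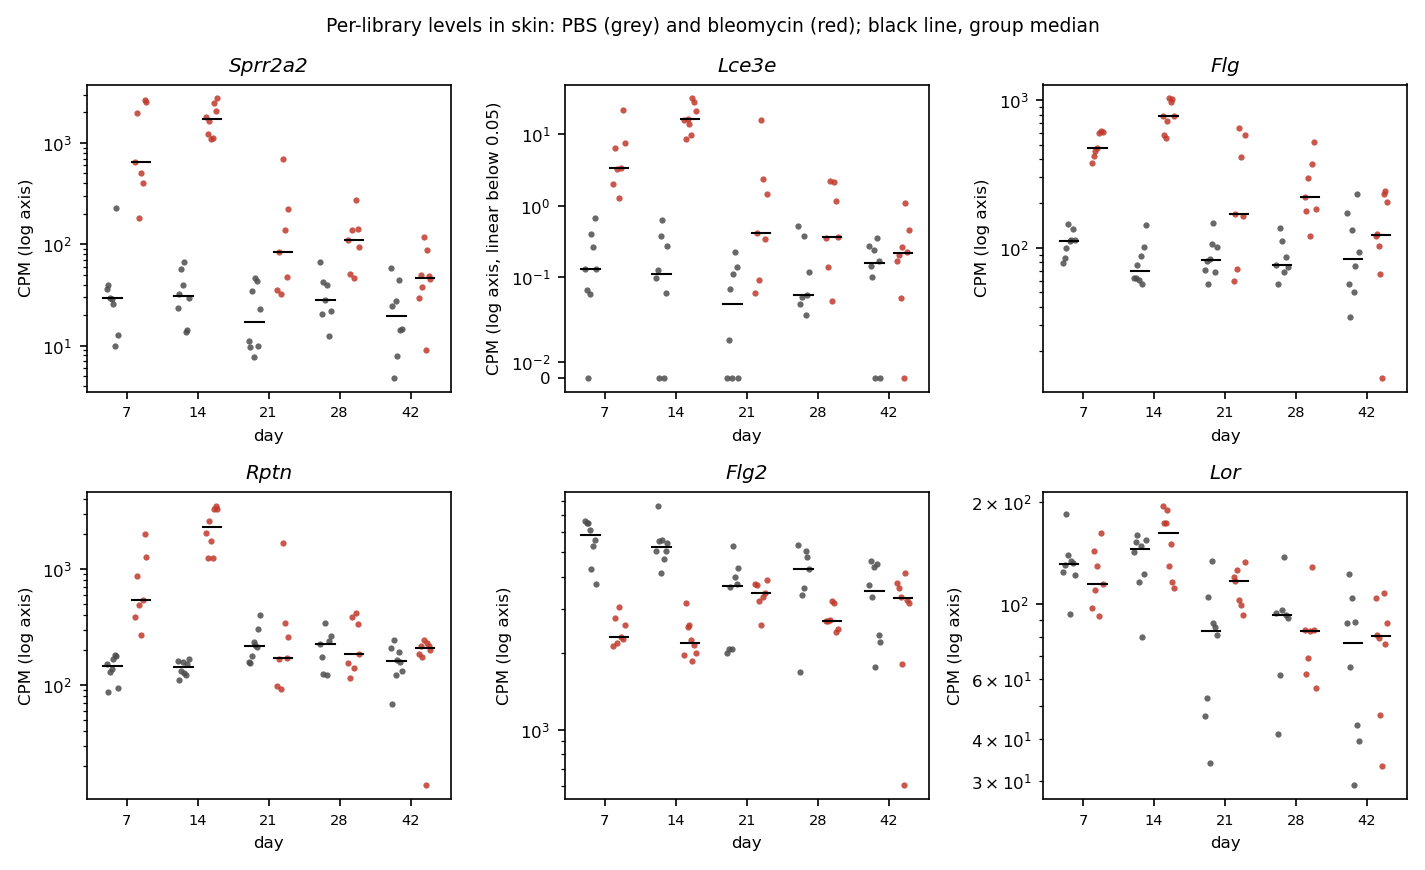
CPM of Sprr2a2, Lce3e, Flg, Rptn, Flg2 and Lor in each PBS (grey) and bleomycin (red) skin library on days 7, 14, 21, 28 and 42, on log axes (linear below 0.05 CPM for Lce3e), with a bar at each median. Sprr2a2, Lce3e, Flg and Rptn are apart from PBS on day 14 and overlap it from day 21, Flg2 lies below PBS on days 7 and 14, and Lor overlaps on all 5 days.

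By day 21, after the 2 weeks of injections, fewer of the members were called, mostly in the same direction. No called member had bleomycin libraries apart from PBS. There 25 members rose and 1 fell, where 41.2% of all genes were called (20.2% higher, 21.0% lower), with a median log2 fold change of 1.20 against -0.03 over all genes. Groups without overlap made up 4.97% of all genes and 0 of the 26 called members. Within both plates, 23 of the 26 had the same sign, all but Sprr1b, Lce3c and Lce3d. Sprr2 rose in 7 of 11, Lce3 in 5 of 6 and Lce1 with Lce6a in 10 of 15. Sprr2a2 ran from 7.77 over 17.0 to 46.3 CPM in PBS and from 32.2 over 84.2 to 693 CPM with bleomycin, a log2 fold change of 2.84 ± 0.60 (adjusted p = 9.25e-05). Flg ran from 57.0 over 82.9 to 147 CPM in PBS and from 59.7 over 171 to 648 CPM, a rise of 1.60 ± 0.36 (adjusted p = 0.000222), and Hrnr rose by 0.93 ± 0.31 (adjusted p = 0.0107). Flg2 was no longer lower (log2 difference 0.00, adjusted p = 0.988), and Rptn, Ivl and Lor did not pass. Sprr1a was the member that fell, by 0.98 ± 0.33 (adjusted p = 0.0135), from a median of 321 CPM to 165 CPM in overlapping groups. Flg2 and Sprr1a also differed between the PBS days, so both results are relative to the PBS level of day 21. In PBS libraries with hair markers below 1000 CPM, the Sprr1a median was 94.3 CPM on day 7 and 231 CPM on day 21. For Flg2 these medians were 6141 and 4034 CPM.

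Replicate 4 of the day 21 bleomycin group was the highest of its 7 libraries in the Lce3 sum (88.5 CPM against 0.647 to 11.0 in the others), in Sprr1b (191 CPM), Rptn (1667 CPM) and Hrnr (4549 CPM). Its wound keratinocyte markers summed to 13363 CPM, against 1044 to 1705 CPM in the other 6. Without it, 15 members rose and 1 fell, with 3 of 11 Sprr2, 2 of 6 Lce3 and 9 of 15 Lce1 and Lce6a genes higher. Lce3e then rose by 3.28 (adjusted p = 0.00117) in place of 5.00, Sprr2a2 by 1.95 (adjusted p = 0.00441) and Flg by 1.31 (adjusted p = 0.00268). Sprr1b, at 2.44 with the library, stood at 0.55 without it (adjusted p = 0.501), and Hrnr at 0.73 (adjusted p = 0.0521). The part of wound keratinocytes in the values of this library was not tested.

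On day 28 few calls remained, and on day 42 there were none. Day 28 had 4 members higher (Flg, Lce3f, Sprr2a2, Lce3e) and 2 lower (Lce1m, Flg2), or 14.6% of the 41, where 24.3% of all genes were called. None of the 6 had groups without overlap, against 5.06% of all genes. Without bleomycin replicate 5 of that day 1 member rose and 2 fell. Flg ran from 57.0 over 76.7 to 137 CPM in PBS and from 121 over 223 to 525 CPM in bleomycin skin, with an overlap between 121 and 137 CPM, and rose by 1.55 ± 0.37 (adjusted p = 0.00107). Sprr2a2 rose by 1.83 ± 0.60 (adjusted p = 0.0187), Lce3f by 2.78 ± 0.87 (adjusted p = 0.012) and Lce3e by 2.42 ± 0.84 (adjusted p = 0.0252). Lce1m fell by 0.89 ± 0.28 (adjusted p = 0.0117) and Flg2 by 0.55 ± 0.21 (adjusted p = 0.0458). All 7 bleomycin libraries of day 28 had hair markers above 1000 CPM, against 4 of 7 PBS libraries, and a fit with hair and muscle terms called 11 members. A fit with a basal keratinocyte score called 16, all higher. The shares of all genes called in these score fits are not given here. Beside the falls of Flg2 and Lce1m on that day, basal keratinocyte markers fell in 5 of 10 and suprabasal genes in 8 of 18, and dermal fibroblast markers rose in 6 of 8, their sum going from a median of 13060 to 44602 CPM. The part of these cells was not tested. On day 42, edgeR called 0 of 41, DESeq2 and limma-trend also 0, and 0 had an unadjusted p below 0.05, where 10.2% of all genes were called (5.28% higher, 4.96% lower) and 0.480% had groups without overlap. Sprr2a2 was nearest, at 4.80, 19.6 and 58.1 CPM in PBS against 9.07, 46.8 and 118 CPM (1.08 ± 0.56, adjusted p = 0.178). The count was also 0 without the low replicate 5 of the bleomycin group.

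Flg, Sprr2a2, Lce3e and Lce3f were called higher on each of days 7, 14, 21 and 28, and Flg2 and Lce1m lower on days 7, 14 and 28. On day 28 fewer members were called higher without bleomycin replicate 5, as given above. The size of the bleomycin effect differed between the 5 days for 32 of 41 members (edgeR F test over the day by treatment terms), where 62.0% of all genes were called. The test gave adjusted p = 2.08e-09 for Ivl, 2.53e-08 for Rptn, 1.17e-06 for Sprr1b, 4.04e-06 for Sprr2a2, 8.1e-06 for Flg and 8.7e-05 for Flg2. The 9 members that did not pass were Lor (adjusted p = 0.28), Sprr2f and 7 Lce1 genes.

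With SB525334 given after bleomycin, the complex was higher than with bleomycin and vehicle. These comparisons use the same bleomycin-with-vehicle libraries as the bleomycin comparisons of their day, so the values are set side by side and not correlated. On day 21, 29 of 41 members rose and 0 fell, where 11.8% of all genes were called, 5.81% higher and 6.02% lower (edgeR). The median log2 fold change of the 41 was 1.36, against -0.03 over all genes, and all 41 estimates were above 0. The groups did not overlap for Lce1i and Lce1j (1.06% of all genes). On day 28, 16 rose and 0 fell, where 23.9% of all genes were called (12.2% higher), with a median of 0.79 against 0.00, and the groups did not overlap for Flg2 and Lce1a2 (5.92% of all genes). The counts depended on the fit: on day 21, 18 were called without the plate term and 17 with a replicate block in its place, and on day 28 limma-trend on the deposited log2 CPM called 4.

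**Figure D3:**
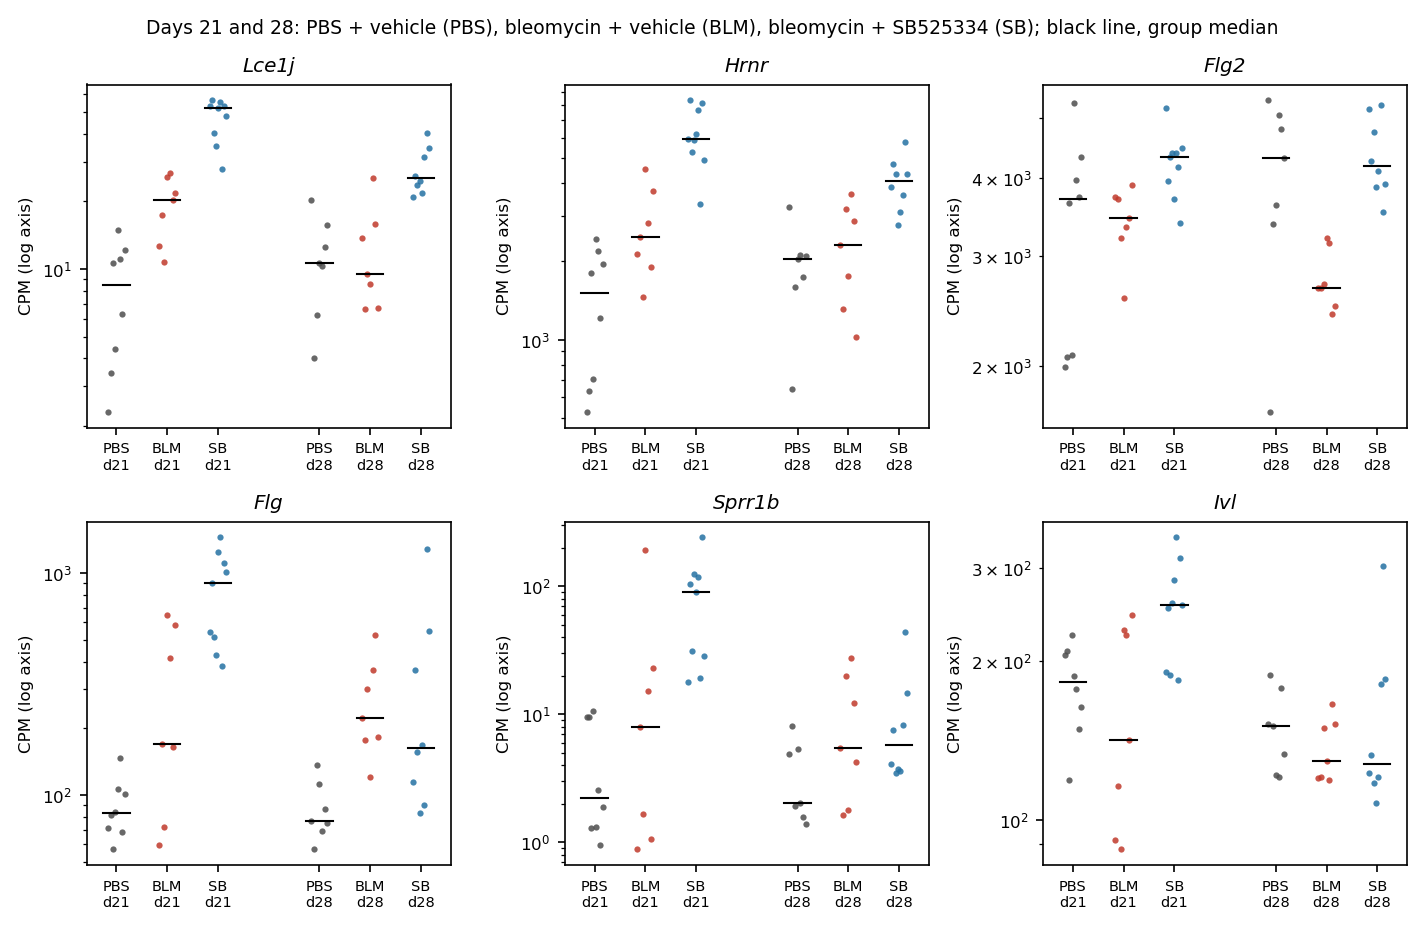
CPM of Lce1j, Hrnr, Flg2, Flg, Sprr1b and Ivl in each skin library given PBS with vehicle, bleomycin with vehicle, or bleomycin with SB525334, on days 21 and 28, on log axes, with a bar at each median. Lce1j with SB525334 lies wholly above vehicle on day 21 (27.9 CPM at the lowest against 26.7 at the highest) and Flg2 on day 28 (3536 against 3211 CPM), while Sprr1b overlaps on both days.

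The Lce1 and Lce6a genes rose on both days, 13 of 15 on each, with the 15 log2 fold changes between 0.17 and 1.59 on day 21 and between 0.64 and 1.16 on day 28. All calls of both days had the same sign within each plate. Lce1j ran from 2.30 over 8.46 to 15.0 CPM in PBS, from 10.7 over 20.3 to 26.7 CPM with vehicle and from 27.9 over 52.1 to 56.4 CPM with SB525334 on day 21, a rise of 1.30 ± 0.33 over vehicle (adjusted p = 0.0046). On day 28 it measured 4.03, 10.6 and 20.2, then 6.62, 9.45 and 25.5, then 20.8, 25.3 and 40.4 CPM, a rise of 1.16 ± 0.34 (adjusted p = 0.0083). The groups overlapped on day 28 between 20.8 and 25.5 CPM, and on day 21 the SB525334 libraries stood above both other groups. Lce1h rose by 1.52 ± 0.34 (adjusted p = 0.000998) and 1.12 (adjusted p = 0.012), and the sum of the 15 went from a median of 984 to 1637 CPM on day 21 and from 543 to 1006 CPM on day 28.

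The Sprr2 and Lce3 genes, the ones raised most during injections, were called on day 21. Sprr2 rose in 8 of 11 and Lce3 in 4 of 6 on day 21, with log2 fold changes of 1.32 to 4.32 and of 1.55 to 2.33, and the Sprr2 sum had medians of 24.2 CPM in PBS, 157 with vehicle and 700 with SB525334. On day 28 the same sum measured 33.5, 147 and 149 CPM, and edgeR called 0 of 11 Sprr2 and 0 of 6 Lce3 genes, with 0 of either at an unadjusted p below 0.05 and 0 by DESeq2 or limma-trend. Whether the SB525334 effect itself differs between the 2 days was not tested. Sprr1b had a vehicle range of 0.882 to 191 CPM on day 21 and did not pass (1.46, adjusted p = 0.129).

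Among the granule proteins, Hrnr rose on both days. With SB525334 it ran from 3316 over 5941 to 8368 CPM on day 21, against 1455, 2482 and 4549 with vehicle and 525, 1508 and 2434 in PBS, a rise of 1.19 ± 0.31 (adjusted p = 0.0053). On day 28 it ran from 2774 over 4098 to 5778 CPM, against 1022, 2317 and 3624 with vehicle, a rise of 0.82 ± 0.31 (adjusted p = 0.0438). Flg rose on day 21 from a vehicle median of 171 CPM (59.7 to 648) to 903 CPM (383 to 1450), by 1.60 ± 0.36 (adjusted p = 0.00125), and Rptn by 1.18 ± 0.42 (adjusted p = 0.0492). The Rptn call rested on single libraries. By edgeR it stood at 0.88 without SB525334 replicate 8 (adjusted p = 0.187) and at 2.15 without vehicle replicate 4 (adjusted p = 9.58e-05). On day 28 Flg had medians of 223 CPM with vehicle and 163 CPM with SB525334 and was not called. Flg2, lower under bleomycin on days 7, 14 and 28, rose on day 28 from 2423, 2675 and 3211 CPM with vehicle to 3536, 4190 and 5239 CPM, by 0.66 ± 0.20 (adjusted p = 0.0134), without overlap. The PBS libraries of that day ran from 1689 over 4307 to 5338 CPM. Ivl rose by 0.64 ± 0.16 (adjusted p = 0.00306) on day 21, and Lor by 0.60 ± 0.22 (adjusted p = 0.0365) on day 28, from a median of 83.1 to 116 CPM.

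Markers of several cell types moved along with these calls. Dermal fibroblast markers fell in 6 of 8 on day 21 and 7 of 8 on day 28, their sum going from a median of 20043 to 14353 CPM and from 44602 to 19556 CPM. On day 28 sebaceous gland markers rose in 6 of 8 and melanocyte markers fell in 4 of 6. Basal keratinocyte markers summed to medians of 8265 CPM with vehicle and 11431 CPM with SB525334 on day 21, and to 7504 and 9374 CPM on day 28. With a basal keratinocyte score as a term in the fit, 6 members were called on day 21 and 0 on day 28. Hair markers passed 1000 CPM in 4 of 7 vehicle and 0 of 9 SB525334 libraries on day 21, and in 7 of 7 and 1 of 8 on day 28, and with hair and muscle scores as terms 27 and 0 members were called. At an unadjusted p below 0.05, 6 members passed on day 28 with the basal score and 14 with the hair and muscle scores. The share of all genes called in these fits is not given here, so a fall particular to these members was not shown. The part of keratinocyte amount and hair growth in the SB525334 values was not tested beyond these fits, and that of the other cell types was not tested. Without SB525334 replicate 8 of day 21, which had the highest wound marker sum (16851 CPM) and Lce3 sum (141 CPM) of its group, 17 members rose, among them 12 Lce1 and Lce6a genes, 2 of 11 Sprr2 and 0 of 6 Lce3 genes. Without vehicle replicate 3 of day 21, 18 rose. Without vehicle replicate 4, which stood apart above, 32 rose, with 9 of 11 Sprr2 and 6 of 6 Lce3. On day 28, 10 rose without vehicle replicate 2 and 10 without vehicle replicate 7.

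**Figure D4:**
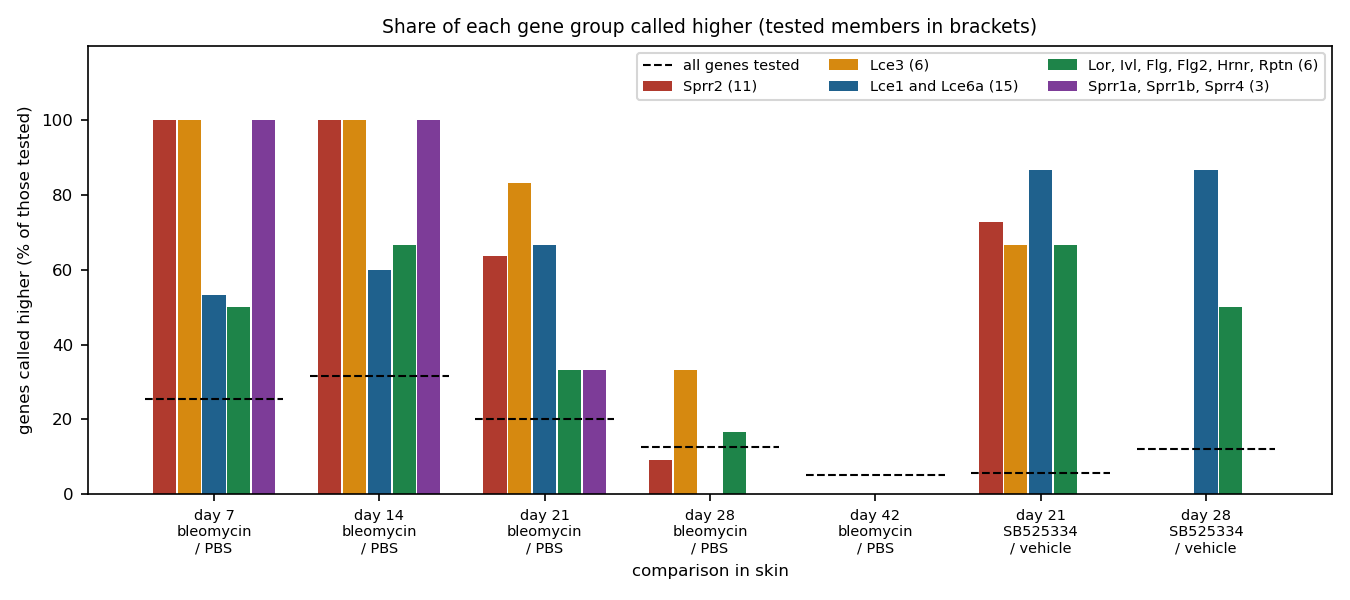
Percent of members called higher in each of 5 groups of genes (Sprr2, Lce3, Lce1 with Lce6a, Sprr1 with Sprr4, and the 6 single genes) in each skin comparison, with the percent of all genes called higher as a dashed line. Sprr2 and Lce3 are at 100% on days 7 and 14, and Lce1 with Lce6a stand highest in the SB525334 comparison of day 28.

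Genes that act around the envelope were read from lists, beside shares of all genes called of 25.5% higher and 20.7% lower on day 7 and 31.5% higher and 28.1% lower on day 14. Proteases and inhibitors of desquamation rose in 13 of 17 on day 7 and 16 of 17 on day 14, with Klk13, a kallikrein protease, at 5.50, and Casp14, the caspase that helps process filaggrin, at 3.18 on day 14. Cross-linking enzymes and other envelope proteins rose in 4 and fell in 2 of 18 on day 7, and rose in 9 and fell in 1 on day 14, with Tgm1, the main cross-linking transglutaminase, at 0.82 and Serpinb12 at 2.99. Enzymes of barrier lipids rose in 4 of 19 and then in 11 of 19, with 1 lower on day 14. The day 7 counts of higher genes in the cross-linking and lipid lists lay near the share of all genes. The median log2 fold changes on days 7 and 14 were 0.76 and 1.40 for the proteases and inhibitors, 0.10 and 0.45 for the cross-linking list and 0.02 and 0.40 for the lipid enzymes, beside 0.02 and 0.01 for all genes. Regulators of late differentiation rose in 4 and fell in 1 of 24 on day 7 and rose in 7 and fell in 3 on day 14, with Nfe2l2, which encodes NRF2, at 0.81 and Gata3 at -0.75; the share higher on day 14 lay near that of all genes. Suprabasal keratins and desmosome genes rose in 2 and fell in 3 of 18 on day 7, and rose in 8 and fell in 2 on day 14, with Krt1 higher by 2.26 and Krt77 lower by 1.69. Wound keratinocyte markers rose in 9 of 9 on both days, with Krt16 at 6.54 on day 14, and their sum ran from 620 to 1239 CPM in PBS against 2012 to 10978 CPM with bleomycin on day 7. The part of wound keratinocytes in the results for Sprr and Lce3 was not tested. Basal keratinocyte markers rose in 2 and fell in 3 of 10 on day 7 and rose in 4 and fell in 3 on day 14, and with their score as a term 34 and 35 members were called. Skeletal muscle markers fell in 9 and then 6 of 12, and dermal fibroblast markers in 6 and then 8 of 8. On day 21 muscle markers rose in 11 of 12 and hair markers fell in 11 of 15, and with both scores as terms 26 members were called, as without them.

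With SB525334 on day 21, suprabasal keratins and desmosome genes rose in 13 of 18 and barrier lipid enzymes in 13 of 19, where 5.81% of all genes were called higher. Among them were Krt2, the keratin of the uppermost living layers, at 4.23, the desmosome linker Dsp at 0.54 and the lipid transporter Abca12 at 0.66. Krt2 was scarce in PBS skin of day 42, at a mean of 0.897 CPM against 1579 CPM for Krt10. Its day 21 levels are not given here. Proteases and inhibitors rose in 9 of 17, among them Asprv1, which cleaves filaggrin, at 0.84. On day 28 the counts were 9 of 18 suprabasal, 12 of 19 lipid (1 lower) and 2 of 17 protease genes, where 12.2% of all genes were called higher, a share that the protease count lay near. Wound keratinocyte markers were called in 0 of 9 on both days by edgeR, with 2 and 0 at an unadjusted p below 0.05. Their median log2 fold changes were 1.03 and -0.24. On day 21 their sum ran from 1044 over 1601 to 13363 CPM with vehicle, where the second-highest library stood at 1705 CPM. With SB525334 it ran from 2032 over 4642 to 16851 CPM. The medians of day 28 were 2027 CPM with vehicle and 1642 CPM with SB525334. The part of wound keratinocytes in the SB525334 results was not tested. Of the 8 other tested genes lying between Lor and Rptn, 3 rose on each of days 7 and 14, near the 25.5% and 31.5% of all genes.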

How the data were processed

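RNA of skin biopsies was sequenced after ribosomal RNA removal with a stranded total RNA kit, per the labels' protocols. The authors deposited expected counts per gene, estimated with RSEM on GRCm38 per the submitters' processing notes, which also name edgeR, and a table of log2 CPM corrected for plate by the authors. RSEM shares reads among similar genes, and 83.9% of skin values were whole numbers.

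Expected counts were rounded. The main test was edgeR 4.0.16 (R 4.3.3): genes passing filterByExpr, TMM scaling, all 93 skin libraries in one quasi-likelihood fit with group and plate terms, and Benjamini-Hochberg adjustment over 15825 genes, called at 0.05. Log2 fold changes carry SE from the F statistic. Alternatives used DESeq2 1.42.0, limma 3.58.1 on the deposited log2 CPM, other scaling, filters and terms, and each library left out. Symbols came from GENCODE M21 (243 of 22095 IDs were unmatched). Tested on simulated day 7 counts of 15729 genes, the fit recovered 94 of the 100 set to 4-fold, 80 of the 100 set to 2-fold, and made 8 false calls. The simulation gave every group the same mean per gene, apart from the genes set to change. Its figures hold for that setting, in which few genes changed, and not for the real comparison.

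The genes, lists and tests were chosen with earlier results of these data known. Named in each comparison are Lor, Ivl, Flg, Flg2, Hrnr and Rptn and up to 8 called members per direction with the lowest adjusted p; Sprr1b, Sprr1a, Sprr2d, Sprr2k, Sprr3, Sprr4, Lce1g, Lce1i and Lce1j were otherwise named after their values were seen.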

Additional observations from a re-analysis of the deposited data

Results flagged for a closer look

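Chance marks about 1 in 20 groups in the check for a single library far from its group, and here 16 of 144 pairs of member and group were marked. Of these, 8 came from replicate 5 of the day 42 bleomycin group, the lowest of its 8 libraries for Flg (13.2 CPM), Flg2 (605), Hrnr (265), Ivl (44.6), Rptn (13.7), Lce1g (0.234), Lce1j (0.351) and Lce1m (22.9 CPM). Its Krt5 was 1550 and its Krt10 706 CPM. Replicate 4 of the day 21 bleomycin-with-vehicle group was lowest for Lce1m (124 CPM) and highest for Lce3e (15.6 CPM).

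In PBS skin, replicate 7 of day 7 was highest for Sprr2a2 (227 CPM) and Lce1g (19.5 CPM), replicate 8 of day 14 for Ivl (186 CPM), replicate 6 of day 14 was lowest for Lor (79.7 CPM) and replicate 2 of day 28 for Flg2 (1689 CPM). Replicate 7 of the day 28 SB525334 group was highest for Rptn (716 CPM).

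The bleomycin effect differed between the 5 days, by the F test of the interaction, for 32 of 41 members.

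Lung libraries of the series were outside the comparisons, and their CPM were scaled without TMM factors. Their summed level of the 42 genes had a median of 14.2 CPM, and replicate 2 of the day 28 bleomycin-with-vehicle lung group reached 2283 CPM, with 4557 counts of Sprr3, 1040 CPM of Rptn, 4907 CPM of Krt4 and 4153 CPM of Krt13, both keratins of oesophageal lining. A further 3 PBS lung libraries followed at 709, 650 and 488 CPM, with 2182 to 2390 counts of the hair keratin Krt31, and the next stood at 74.6 CPM.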

How the results depend on the processing

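No alternative turned the direction of a named gene that was called in the main fit or in the alternative. Of the log2 fold changes under the alternatives, 742 kept their side of the threshold, 52 lost the call and 4 gained it. Directions of values called in neither fit were not compared. With near-identical copies summed, which leaves 27 features, 21 were called on day 7, 23 on day 14, 15 on day 21, 18 with SB525334 on day 21 and 21 for a difference between days. On day 21, limma-trend on the deposited values called 15, and a fit of only the groups compared, in which fewer genes passed the filter, 15. On day 28, 16 were called with the basal keratinocyte score and 11 with hair and muscle scores. With SB525334 on day 21, 18 were called without the plate term, 17 with a replicate block in place of plate, 19 with only the groups compared and 6 with the basal score. On day 28, SB525334 calls numbered 0 with the basal score, 0 with hair and muscle scores and 4 by limma-trend. Hair and muscle scores left 21 members differing between days and 0 between PBS days. Shares of all genes called under the alternatives are not given here, so no shift was shown to be particular to these members. Apart from these fits, the cause of each shift was not tested. The block changed no other count by over 1.5 times. Replicate numbers were not taken to pair samples: pairs with a correlation above 0.1 numbered 4 of 7 on day 7, 0 of 8 on day 14, 0 of 7 on day 21, 2 of 7 on day 28, 2 of 8 on day 42, and 2 and 1 of 7 with SB525334, and in none of these did every sample correlate best with its own number.

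Leaving out each library in turn gave 30 to 33 calls on day 7, 34 to 35 on day 14, 16 to 28 on day 21, 3 to 7 on day 28 and 0 to 0 on day 42, 17 to 32 and 10 to 18 with SB525334 on days 21 and 28, 29 to 34 between days and 12 to 18 between PBS days. These refits kept the trended dispersion and gene filter of the whole set. Counts near 0 limit the folds of Sprr2 and Lce3 genes in PBS skin, and reads of near-identical copies cannot be assigned with certainty.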
